A study of Mus musculus with 6 samples.

Results

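The type II hair keratins, the basic keratins of the hair shaft, were examined gene by gene and as a sum in mouse organoids labelled AKP. The genes were selected by name, as Krt81 to Krt87 in the symbols matched to the count table, and were put forward because earlier results of the same 6 libraries showed them high in GATA6KO. Their difference between the groups is therefore described here and not tested. Of the 7 names, 6 were found among the 54418 genes of the table (Krt81, Krt82, Krt83, Krt84, Krt86 and Krt87), and Krt85 was not analysed here. Poly(A)-selected RNA was sequenced from 3 GATA6KO and 3 Control organoid libraries. Both groups carry the AKP label, which the labels do not spell out, and they differ in the genotype label alone, with no treatment or time given. The labels give neither the nature of the Gata6 lesion nor the number of clones, and nothing in them says that replicates are separate cultures. The p-values set the group difference against the spread between libraries of a group, and that spread may be technical. On chromosome 14, GATA6KO replicate 2 had a median log2 difference from the Control mean of -0.90. GATA6KO replicates 1 and 3 had -0.090 and 0.043, and the source of this shift was not tested.

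Keratins build intermediate filaments as pairs of an acidic type I and a basic type II chain. The hair keratins are the cysteine-rich branch of both families and form the cortex and cuticle of the hair shaft, where keratin-associated proteins cross-link them. Intestinal epithelium, by contrast, is built mainly on the simple keratins Krt8, Krt18, Krt19 and Krt20. In humans, mutations of KRT81, KRT83 and KRT86, which are keratins of the hair cortex, cause the brittle-hair disorder monilethrix. Human KRT82 is a keratin of the hair cuticle, KRT84 is known from the filiform papillae of the tongue, and the human counterpart of Krt87 is a pseudogene.

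The 6 genes lie in 1 block of 119630 bases on chromosome 15 (mm10). Krt87 (ENSMUSG00000047641, chr15:101431038-101438804, minus strand) is followed by Krt81 (ENSMUSG00000067615, chr15:101459061-101463751, minus strand) and Krt86 (ENSMUSG00000067614, chr15:101473478-101479986, plus strand). Beyond them lie Krt83 (ENSMUSG00000067613, chr15:101485130-101491512, minus strand), Krt84 (ENSMUSG00000044294, chr15:101525026-101532820, minus strand) and Krt82 (ENSMUSG00000049548, chr15:101541214-101550667, minus strand). How alike the genes are in sequence bears on every value below, because estimated counts share out each read that matches more than 1 transcript. The same aligned stretch of 90 coding bases is shown for each gene from the GENCODE M21 transcripts, with capitals marking bases that differ from Krt81:
Krt81: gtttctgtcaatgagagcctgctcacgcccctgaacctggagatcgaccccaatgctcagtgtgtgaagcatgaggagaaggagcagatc
Krt83: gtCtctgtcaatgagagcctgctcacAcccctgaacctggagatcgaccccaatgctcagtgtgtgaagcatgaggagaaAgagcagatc
Krt86: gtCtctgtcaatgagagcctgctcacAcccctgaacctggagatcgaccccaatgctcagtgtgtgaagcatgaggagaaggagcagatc
Krt87: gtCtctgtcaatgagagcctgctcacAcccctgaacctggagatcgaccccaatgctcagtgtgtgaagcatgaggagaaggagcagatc
Krt84: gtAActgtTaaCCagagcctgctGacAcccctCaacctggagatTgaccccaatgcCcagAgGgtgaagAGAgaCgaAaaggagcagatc
Krt82: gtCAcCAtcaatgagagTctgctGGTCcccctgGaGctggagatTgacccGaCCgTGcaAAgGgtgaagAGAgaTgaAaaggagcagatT

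Within this stretch 3 bases differed in Krt83 and 2 each in Krt86 and Krt87, against 17 in Krt84 and 26 in Krt82. Over the whole aligned coding sequences, Krt81 was 93.2% identical to Krt83, 92.9% to Krt86 and 87.9% to Krt87. Krt84 was 57.7% to 59.7% identical to the other members, and Krt82 was 59.7% to 66.5% identical. Of the 31-base words of their annotated transcripts, 52.4% in Krt87, 50% in Krt86, 44.6% in Krt81 and 37.4% in Krt83 also occurred in another gene, against 0.577% in Krt82 and 0.345% in Krt84. Krt87 shares 603 of its words with Gm49425, a gene inside the block that is not a member. The division of reads among Krt81, Krt83, Krt86 and Krt87, and between Krt87 and Gm49425, is thus uncertain. Krt84 and Krt82 have almost no shared words.

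The RefSeq promoter windows (GRCm38.p6) matched 2 of the 6 members. They are shown because Krt84 and Krt82 stand next to each other and differed widely in level in the same libraries. The 250 bases before the annotated start lie at chr15:101532821-101533070 for Krt84 and at chr15:101550660-101550909 for Krt82, both on the minus strand and written in the direction of the gene. The RefSeq start of Krt82 lies a few bases inside the GENCODE gene end given above, so its window overlaps that end, and positions are counted from the RefSeq starts. Capitals mark the longest run that the pair share:
Krt84: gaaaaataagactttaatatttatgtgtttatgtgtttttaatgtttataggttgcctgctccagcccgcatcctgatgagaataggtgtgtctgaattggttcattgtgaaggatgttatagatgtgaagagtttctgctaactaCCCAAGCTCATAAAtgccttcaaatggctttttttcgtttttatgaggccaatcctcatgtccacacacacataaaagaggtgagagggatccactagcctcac
Krt82: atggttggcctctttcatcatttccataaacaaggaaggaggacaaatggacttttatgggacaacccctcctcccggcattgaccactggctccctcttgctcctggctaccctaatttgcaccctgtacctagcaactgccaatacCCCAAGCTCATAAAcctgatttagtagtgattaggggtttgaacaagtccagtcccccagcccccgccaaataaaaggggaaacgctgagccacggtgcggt

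The run CCCAAGCTCATAAA stands at positions -104 to -91 of Krt84 and -102 to -89 of Krt82, counted back from the base before the RefSeq start. Searched on both strands, it occurred in 2 of 32851 promoter windows of the same length (0.00609%), which are those it was found in. Its last 8 bases, CTCATAAA, occurred in 0.81% of the windows. The letters ATAAAA were present in both genes and in 17% of all windows. The letters TATAAA, found in 12.4% of windows, had a match in Krt84, on the strand opposite to the gene, and none in Krt82. The GATA-type letters AGATAA (9.99% of windows) and TGATAA (7.94%) occurred in neither gene on either strand. Neither did the letters CTTTGAA (4.46%), CTTTGAT (3.21%) and CTTTGTT (5.03%), which are forms bound by Lef1-type factors. These matches describe letters in the windows only.

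Library totals ran from 29208525 to 29674562 counts in GATA6KO and from 22973245 to 31328415 counts in Control. Gata6 itself kept 427, 489 and 247 counts in GATA6KO replicates 1 to 3, against 577, 669 and 840 counts in Control replicates 1 to 3. It fell by 0.99 on the log2 scale (SE 0.25, edgeR quasi-likelihood adjusted p = 0.0486). This call was lost without any single Control library, with edgeR adjusted p up to 0.181. The Gata6 call was also lost with library totals as the scale (edgeR adjusted p = 0.0573) and with replicate number as a block (edgeR adjusted p = 0.0915). Across all 14714 genes tested, 1018 rose (6.92%), 805 fell (5.47%) and the median log2 fold change was 0.02. With library totals alone as the scale, 1302 rose and 680 fell.

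Krt81, Krt83, Krt84, Krt86 and Krt87 were higher in every GATA6KO library than in every Control library. Krt82 was counted in the GATA6KO libraries alone, but its 3 counts in replicate 1 are no more than a count of 0 allows. Their summed level was 1174, 899 and 896 CPM (estimated counts per 1000000, scaled by TMM) in GATA6KO replicates 1 to 3, against 63.4, 34.9 and 36.5 CPM in Control replicates 1 to 3. The mean was 989.7 ± 160 CPM in GATA6KO and 44.9 ± 16 CPM in Control (SD, n = 3 each), a ratio of 22.0. The lowest GATA6KO library stood 14.1-fold above the highest Control library. The genes took 0.117%, 0.0899% and 0.0896% of the counts in the GATA6KO libraries, against 0.00634%, 0.00349% and 0.00365% in the Control libraries. In bulk RNA, a change in the number of cells that express these genes and a change in RNA per cell cannot be told apart.

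**Figure D1:**
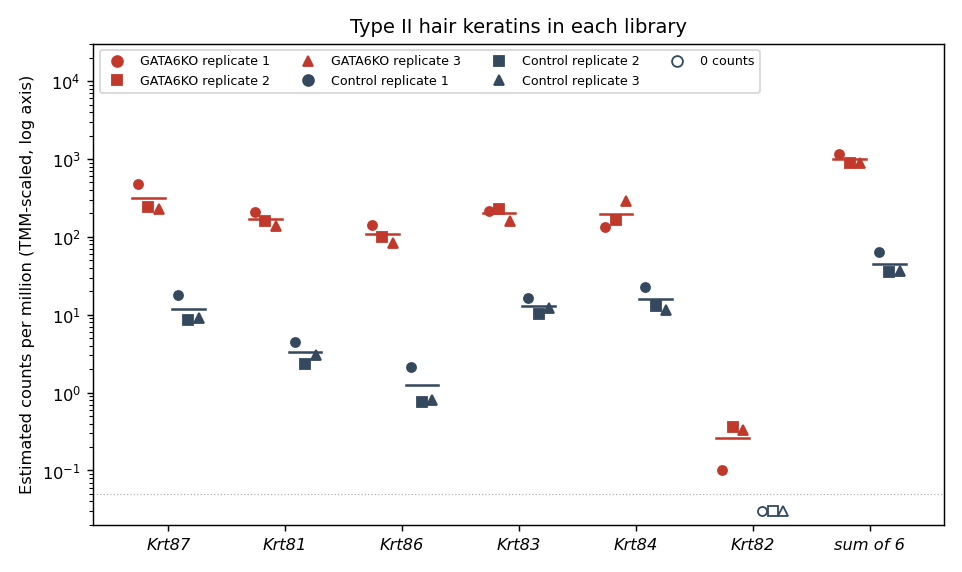
Level of each type II hair keratin and of their sum in each library, in TMM-scaled CPM on a log axis, with horizontal lines at the means of 3 libraries and open symbols for 0 counts. For every gene the 3 GATA6KO libraries lie above the 3 Control libraries, though Krt82 had only 3 counts in GATA6KO replicate 1, and Krt84 is highest in GATA6KO replicate 3 while Krt87 is highest in GATA6KO replicate 1.

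Among the 4 genes that share the most sequence words, Krt87 had the highest mean in GATA6KO. It measured 475, 242 and 227 CPM in GATA6KO replicates 1 to 3 (14204, 7380 and 6820 counts), against 17.7, 8.56 and 9.17 CPM in Control replicates 1 to 3 (404, 247 and 275 counts). The first replicate of each group was the highest, and the groups did not overlap. The log2 fold change was 4.74 (SE 0.44). GATA6KO replicate 1 was 5.33 above the Control mean on the log2 scale, and replicates 2 and 3 were 4.36 and 4.27 above it.

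Krt81, a cortex keratin in human hair, measured 207, 161 and 136 CPM in GATA6KO replicates 1 to 3 (6187, 4909 and 4078 counts), against 4.47, 2.36 and 3.0 CPM in Control replicates 1 to 3 (102, 68 and 90 counts). Its lowest GATA6KO value was 30.4-fold above its highest Control value, and the log2 fold change was 5.69 (SE 0.29). Krt86, the member that lies on the plus strand, measured 144, 101 and 82.9 CPM in GATA6KO (4294, 3073 and 2487 counts), against 2.15, 0.763 and 0.800 CPM in Control (49, 22 and 24 counts). It had the largest log2 fold change of the members tested, at 6.51 (SE 0.45), and the fewest Control counts among them. Krt81 and Krt86 were both highest in GATA6KO replicate 1 and in Control replicate 1.

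Krt83, also a cortex keratin in human hair, had the smallest spread in GATA6KO, with a coefficient of variation of 18.7%. It measured 214, 231 and 159 CPM in GATA6KO replicates 1 to 3 (6399, 7037 and 4758 counts), against 16.4, 10.2 and 12.1 CPM in Control replicates 1 to 3 (374, 295 and 363 counts). Its log2 fold change was 3.97 (SE 0.23), and its lowest GATA6KO library was 9.68-fold above its highest Control library.

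Krt84, which shares almost no sequence words with the others, followed another order of libraries. It measured 135, 165 and 290.3 CPM in GATA6KO replicates 1 to 3 (4028, 5019 and 8704 counts), against 22.7, 13.0 and 11.5 CPM in Control replicates 1 to 3 (517, 375 and 344 counts). Within GATA6KO it was highest in replicate 3, where Krt81, Krt83, Krt86 and Krt87 were each at their lowest. Its log2 fold change of 3.65 (SE 0.40) was the smallest of the 5, and its groups were 5.95-fold apart at their nearest. Of all genes tested, 137 (0.931%) had a log2 fold change at least as large, the 5 tested members among them. Nothing is read from this share, since the members were put forward from this contrast.

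Krt82 stayed near 0. It had 3, 11 and 10 counts in GATA6KO replicates 1 to 3 (0.10, 0.361 and 0.334 CPM), against 0 counts in each Control library. Summed over a group, the 24 counts in GATA6KO were 7.62-fold higher, at equal library totals, than the 3 counts that 0 counts over the Control group allow. This ratio allows for counting error in the Control 0 alone, and not in the 24 counts. Krt82 failed the filter on low counts and was not in the fit. The other 5 members were in the fit, and each reached the filter level in all 3 Control libraries as well. All 5 were called higher at an edgeR adjusted p under 0.05, beside 6.92% of all genes tested that were called higher and 12.4% called in either direction. Groups did not overlap, with GATA6KO higher, in 20.3% of all genes tested, and did not overlap in either direction in 40.8%. Nothing is read from these counts, since the members were put forward from this contrast.

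The estimated make-up of the block differed between the groups in the shares of Krt81, Krt83 and Krt86, and it varied within GATA6KO. These genes share many sequence words, so their shares rest on an uncertain division of reads. Krt81 made up 17.6%, 17.9% and 15.2% of the member counts in GATA6KO replicates 1 to 3, against 7.05%, 6.75% and 8.21% in Control. Krt86 made up 12.2%, 11.2% and 9.26% in GATA6KO, against 3.39%, 2.18% and 2.19% in Control. The shares of both were higher in every GATA6KO library than in every Control library. Krt84 made up 11.5%, 18.3% and 32.4% in GATA6KO, against 35.8%, 37.2% and 31.4% in Control. Krt87 made up 40.5%, 26.9% and 25.4% in GATA6KO, against 27.9%, 24.5% and 25.1% in Control. The shares of Krt84 and Krt87 overlapped between the groups. Krt83 made up 18.2%, 25.7% and 17.7% in GATA6KO, against 25.9%, 29.3% and 33.1% in Control, and its share was lower in every GATA6KO library than in every Control library.

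**Figure D2:**
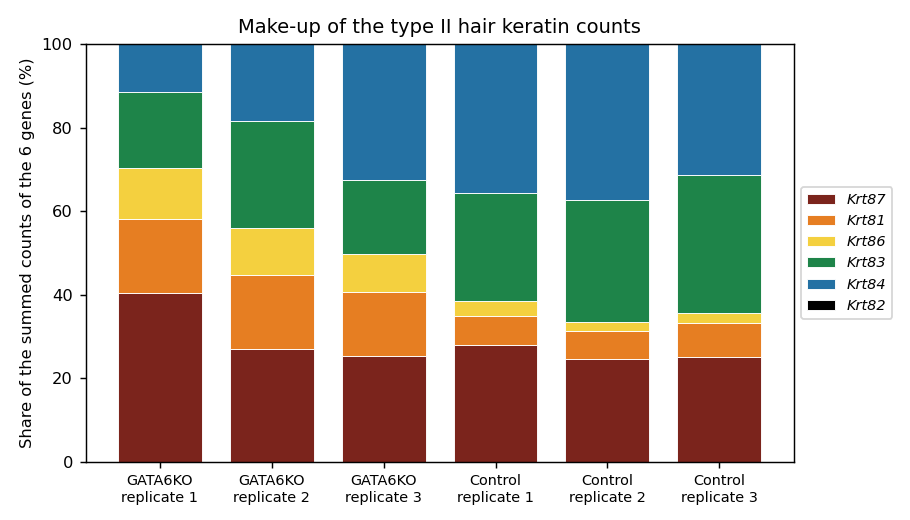
Share of each gene in the summed estimated counts of the 6 type II hair keratins, in percent, for each library. Krt81 and Krt86 take larger shares in the GATA6KO libraries than in the Control libraries, and the Krt84 share runs from 11.5% to 32.4% within GATA6KO.

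The ratio of Krt84 to Krt87 counts was 0.284, 0.680 and 1.28 in GATA6KO replicates 1 to 3, against 1.28, 1.52 and 1.25 in Control replicates 1 to 3. It was lowest in GATA6KO replicate 1, the library with the highest Krt87 and the lowest Krt84 of that group, and the groups overlapped at the value of GATA6KO replicate 3. The ratio of Krt86 to Krt81, a pair that shares many words, varied less within GATA6KO, at 0.694, 0.626 and 0.610, against 0.480, 0.324 and 0.267 in Control.

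Per kb of annotated exon, which allows levels of different genes to be set side by side, the order differed between the groups. In GATA6KO the mean was 138 ± 61.0 CPM per kb for Krt87, 109 ± 20.5 for Krt83, 79.3 ± 17 for Krt81, 74.4 ± 31.3 for Krt84, 55.6 ± 15.9 for Krt86 and 0.126 ± 0.0678 for Krt82 (SD, n = 3). The ranges of each neighbouring pair in that order overlapped, except Krt86 and Krt82, although Krt83 was above Krt81 in 3 of 3 libraries. In Control the mean was 7.01 ± 1.71 CPM per kb for Krt83, 5.95 ± 2.30 for Krt84, 5.18 ± 2.24 for Krt87, 1.55 ± 0.511 for Krt81, 0.630 ± 0.402 for Krt86 and 0 for Krt82. The ranges of Krt83, Krt84 and Krt87 overlapped there, although within each of the 3 Control libraries Krt83 was above Krt84 and Krt84 above Krt87, while Krt81, Krt86 and Krt82 stood apart below them.

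Summed per kb, the hair keratins made up 28.6%, 24.8% and 21.5% of the type II keratin analysed in GATA6KO replicates 1 to 3, against 1.51%, 0.813% and 0.831% in Control replicates 1 to 3. Krt85 was not in these sums. The union of annotated exons is long for Krt7, which averaged 1060 CPM but only 150 CPM per kb in GATA6KO. This makes the hair keratin share larger per kb than it would be by counts. Krt8, the type II keratin of simple epithelium, was the most abundant type II keratin in both groups. The hair keratin sum was 47.5%, 40.8% and 32.1% of the Krt8 level in GATA6KO, against 1.77%, 0.938% and 0.971% in Control. Krt8 averaged 2242 ± 217 CPM in GATA6KO and 3273 ± 116 CPM in Control, and fell by 0.55 on the log2 scale (SE 0.11, edgeR adjusted p = 0.0256). This call was lost without any single Control library, with edgeR adjusted p up to 0.124.

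**Figure D3:**
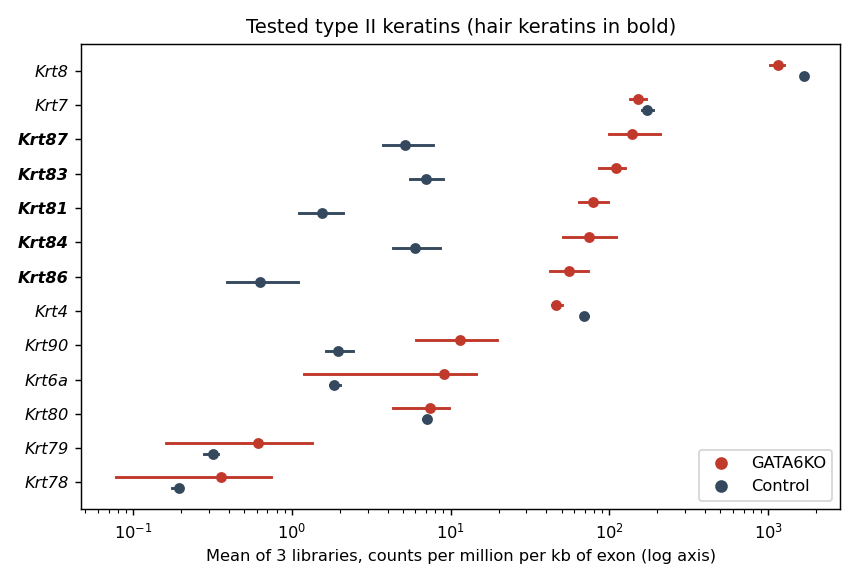
Level of each tested type II keratin in CPM per kb of exon on a log axis, with hair keratins in bold, points at the mean of 3 libraries and bars from the lowest to the highest library (a bar narrower than its point is hidden). The 5 hair keratins lie between 55.6 and 138 in GATA6KO, below Krt8, and between 0.630 and 7.01 in Control. The level of Krt7 on this scale is lowered by its long union of annotated exons.

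Of the 19 other type II keratins in the table, 8 were tested, of which 1 rose and 2 fell, beside 6.92% and 5.47% of all genes, with a median log2 fold change of 0.47 against 0.02 over all genes. Krt90, which begins 1689 bases beyond Krt82, rose, with 456, 655 and 1493 counts in GATA6KO replicates 1 to 3 against 140, 129 and 125 counts in Control replicates 1 to 3 (log2 fold change 2.55, SE 0.46, edgeR adjusted p = 0.0186). Like Krt84, it was highest in GATA6KO replicate 3. Krt4, a keratin of stratified mucosal epithelium, fell by 0.60 on the log2 scale (edgeR adjusted p = 0.0127). All 3 calls, Krt8 included, were lost without any single Control library, with edgeR adjusted p up to 0.106 for Krt90 and 0.0736 for Krt4.

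The type I hair keratins are the pairing partners. Of 9 in the table, 7 were tested and all 7 rose, beside 6.92% of all genes, with a median log2 fold change of 4.60. The lists of other keratins, keratin-associated proteins, regulators and structural genes of the hair shaft were chosen with earlier results of these data known. Nothing is read from how many of each rose. Krt34 averaged 361 ± 82.3 CPM in GATA6KO and 8.89 ± 1.83 CPM in Control (log2 fold change 5.35, SE 0.25, edgeR adjusted p = 0.000654). Krt33a (4.84), Krt31 (4.70) and Krt33b (4.60) followed in log2 fold change, with edgeR adjusted p of 0.000759, 0.00211 and 0.00305. Summed per kb, type I hair keratins averaged 464 ± 31.8 CPM per kb in GATA6KO and 22.0 ± 4.51 CPM per kb in Control. The ratio of type II to type I hair keratin per kb was 1.16, 0.854 and 0.936 in GATA6KO replicates 1 to 3, against 1.05, 0.813 and 0.866 in Control replicates 1 to 3. Krt85 is missing from the type II side of these ratios. They overlapped between the groups, with means of 0.985 ± 0.160 in GATA6KO and 0.909 ± 0.123 in Control (SD, n = 3 each).

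Of 58 keratin-associated protein genes, 44 had a count and 22 were tested, of which 20 rose, beside 6.92% of all genes. Of these 22, 3 reached the filter level in all Control libraries, and all 3 rose. The others, among them every gene named next, entered the fit through GATA6KO. Krtap4-1 had 324, 278 and 148 counts in GATA6KO replicates 1 to 3, against 1, 0 and 1 counts in Control replicates 1 to 3. Krtap4-16 had 106, 169 and 62 counts in GATA6KO against 1, 0 and 0 in Control, while Krtap4-8 (37, 97 and 45 in GATA6KO) and Krtap22-2 (46, 31 and 18 in GATA6KO) had 0 counts in every Control library. The Krtap22-2 call was lost without Control replicate 3 (edgeR adjusted p = 0.0532).

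Of 15 regulators of the hair shaft, 14 were tested, of which 4 rose and 1 fell, beside 6.92% and 5.47% of all genes, with a median log2 fold change of 0.08. Msx2 (log2 fold change 4.32, edgeR adjusted p = 0.00153), a homeobox factor of the hair matrix, Lef1 (1.91, edgeR adjusted p = 0.00654), a Wnt effector, and Foxn1 (1.75, edgeR adjusted p = 0.0068), the nude gene, which controls hair keratin genes in mice, rose. Dlx3, a homeobox factor of hair, also rose (2.11, edgeR adjusted p = 0.0113), and Gata3, a factor of the inner root sheath, fell by 2.40 (edgeR adjusted p = 0.0365). The Dlx3 and Gata3 calls were lost without any single Control library, with edgeR adjusted p up to 0.0624 and 0.143. The Gata3 call was also lost without GATA6KO replicate 2 (edgeR adjusted p = 0.0646). Hoxc13, a regulator of hair keratins in mice, had 0 counts in all 6 libraries, which allows up to 3 counts in each.

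Of 8 structural genes of the hair shaft, 6 were tested, of which 3 rose and none fell, beside 6.92% and 5.47% of all genes, with a median log2 fold change of 1.79. They were the desmosomal cadherin Dsg4 (3.89, edgeR adjusted p = 0.00305), the transglutaminase Tgm3 (3.09, edgeR adjusted p = 0.0194) and the calcium-binding cuticle protein S100a3 (2.40, edgeR adjusted p = 0.00582). The Tgm3 call was lost without any single Control library, with edgeR adjusted p up to 0.109.

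Of 111 other genes within 1 Mb of the members, 49 were tested, of which 3 rose and 5 fell, beside 6.92% and 5.47% of all genes tested, with a median log2 fold change of -0.03. Of the 45 that reached the filter level in all Control libraries, 2 rose and 5 fell. Leaving out the genes with keratin symbols, 2 of 40 rose and 2 fell, shares near those of all genes. Those that rose include Gm49425, which shares sequence with Krt87 and is not an independent neighbour. Krt7, the nearest tested gene on one side at 725 bases from Krt87, had a log2 fold change of -0.19 (edgeR adjusted p = 0.338). Gm49425, which lies inside the block, rose, with 124, 286 and 148 counts in GATA6KO replicates 1 to 3 against 10, 1 and 0 counts in Control replicates 1 to 3 (log2 fold change 5.38, edgeR adjusted p = 0.0215). It shares 603 of the 31-base words of Krt87, so its counts are uncertain, and it entered the fit through GATA6KO, being below the filter level in Control replicates 2 and 3. Soat2, a cholesterol esterifying enzyme, and Galnt6, a glycosyltransferase, had the largest decreases, falling by 4.03 and 3.98 on the log2 scale (edgeR adjusted p = 0.0118 and 0.00553). The Soat2 call was lost without any single Control library and the Gm49425 call without Control replicate 2 or 3, with edgeR adjusted p up to 0.0625 and 0.102.

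**Figure D4:**
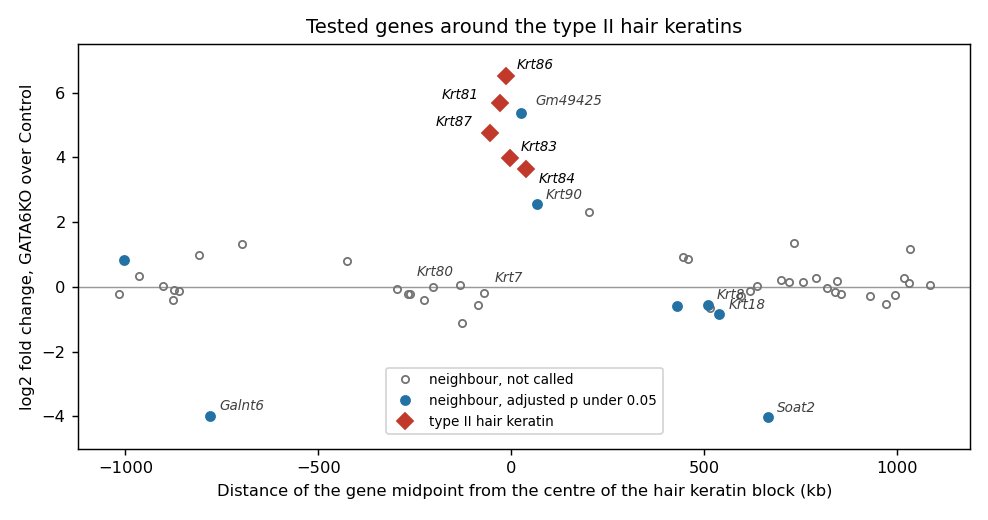
Log2 fold change of GATA6KO over Control for each tested gene within 1 Mb of the type II hair keratin block, by distance of the gene midpoint from its centre in kb. The 5 hair keratins tested lie between 3.65 and 6.51, and filled circles mark the 3 neighbours that rose and the 5 that fell at an edgeR adjusted p under 0.05.

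The genes whose profile over the 6 libraries lay nearest to that of the summed members, among tested genes with a named symbol, were Krt33a, Krtap1-5, Krt15, Dapl1 and Krt36. The measure was the Euclidean distance between centred log2(CPM + 1) values, which was 0.400, 0.808, 0.851, 0.914 and 0.955 for them in that order. Of the members, Krt87 lay at 0.550 from the sum, Krt83 at 0.890, Krt81 at 1.07, Krt86 at 1.46 and Krt84 at 1.56. Each member is part of the sum, so these distances cannot be set beside those of the other genes. The distance reflects both the size of the group difference and the order of the libraries.

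Markers of other cell types were listed beside these values. Simple epithelium markers summed to 6568 to 7688 CPM in GATA6KO and 9589 to 10400 CPM in Control, so that both groups carried the epithelial genes of the label, and 3 of the 8 fell. Inner root sheath markers summed to 0.10 to 0.602 CPM in GATA6KO and 0.0667 to 0.139 CPM in Control, with 7 of 8 at no more than 3 counts in any library. Interfollicular epidermis markers summed to 15.5 to 22.8 CPM in GATA6KO and 6.22 to 7.31 CPM in Control. Of this list, Krt1 and Krt2 stayed at 3 counts or fewer in each library. Krt10 had 83, 177 and 100 counts in GATA6KO replicates 1 to 3, against 67, 97 and 109 counts in Control replicates 1 to 3. Ivl had 31, 179 and 9 counts in GATA6KO, against 11, 17 and 14 counts in Control. Of the 3 markers tested, loricrin (Lor) rose (log2 fold change 2.10, edgeR adjusted p = 0.00194), while Krt10 and Ivl were not called. Fibroblast markers summed to 0.267 to 0.634 CPM in GATA6KO and 0.400 to 0.485 CPM in Control. Melanocyte markers summed to 0.361 to 1.3 CPM in GATA6KO and 0.659 to 1.05 CPM in Control, with 3 of 5 at no more than 3 counts. Immune markers summed to 2.95 to 5.32 CPM in GATA6KO and 10.9 to 14.3 CPM in Control, mostly Cd68. The mitochondrial share of counts was also higher in every GATA6KO library (2.07% to 2.84%) than in every Control library (1.85% to 1.88%). The part of these lists and of the mitochondrial share in the hair keratin values was not tested.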

How the data were processed

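Poly(A) RNA of 3 GATA6KO and 3 Control organoid libraries was made into strand-marking libraries, per the labels' protocols. The authors deposited estimated counts per gene, whole numbers not scaled between libraries. Per the submitters' processing notes, Salmon 1.3.0 and the mm10 build are listed with no role given. Which annotation was quantified, how transcripts were summed and whether strand was used is not given in the sources used here. Such estimates divide shared reads among similar transcripts.

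Symbols, coordinates and transcripts came from GENCODE M21 (54096 of 54418 identifiers matched). Genes were kept by edgeR's filterByExpr (in 3 libraries at least the CPM that 10 counts make in a library of median size, and 15 counts in total), which left 14714, and libraries were scaled by TMM. The edgeR quasi-likelihood test without a block was run on the counts rounded to whole numbers (they were whole already), with Benjamini-Hochberg adjustment over all genes and a threshold of 0.05. Simulated 4-fold changes were recovered in 72% of 50 genes among 14714. CPM is per 1000000 counts, and per kb divides by the union of annotated exons, which is long for Krt7. Floors cover counting error only, and the Krt82 ratio allows for it in the Control 0 alone. The members and all lists were chosen with earlier results of these data known. Named were the members, Gata6, from each list the 4 called genes with the largest fold change (group mean of 1 CPM or more), the neighbours nearest to the block, and the 5 nearest profiles. Foxn1 and Lor were named after their values were seen. Alternatives were RLE or library total as the scale, DESeq2, no filter, a replicate block, and each library or member left out. Software was edgeR 4.0.16, DESeq2 1.42.0 and limma 3.58.1 under R 4.3.3.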

Additional observations from a re-analysis of the deposited data

How the results depend on the processing

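The log2 ratio of the summed type II hair keratins ran from 4.29 to 4.80 with each library left out, against 4.46, and no setting moved it or a member by more than the spread between replicates. Over 12 settings the log2 fold change was 5.48 to 5.98 for Krt81, 3.81 to 4.18 for Krt83, 3.26 to 4.02 for Krt84, 6.23 to 7.13 for Krt86 and 4.32 to 5.16 for Krt87. Counts of calls moved more, and the cause was not tested. Over all genes, 1823 were called, against 3155 with DESeq2, 827 with the replicate block and 332 to 4360 with each library left out (425, 389 and 332 without Control replicates 1, 2 and 3, and 4360 without GATA6KO replicate 1). The other type II keratins had 3 calls, against 1 with the block and 0 to 4 with a library left out. Regulators had 5 calls, against 3 to 8 with a library left out. With the replicate block, the calls of Gata6, Krt8, Krt90, Gata3, Tgm3 and Gm49425 were lost. Without the filter, those of Krt90, Gata3 and Gm49425 were lost. Neighbours of the block had 8 calls, against 4 with the block and 1 to 16 with a library left out. Calls stayed within 1.5 times the main count for type I hair keratins (5 to 8 with a library left out), structural genes (2 to 4) and keratin-associated proteins (15 to 22). Same-numbered replicates did not deviate together (correlations -0.0509, 0.0975 and -0.120), so the numbers were not taken as pairs. Depth limits Krt82, at 0 to 11 counts.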

Other observations

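Each member was also set by the same distance against the tested genes with a named symbol that are not members themselves, a look chosen after the values were seen. Among those genes, Krt34 lay nearest to Krt81 (0.480) and to Krt86 (0.799). Krt33b lay nearest to Krt83 (0.657), Krt33a to Krt87 (0.740) and Krt36 to Krt84 (0.712), all of them type I hair keratins. Next came Krtap1-5 for Krt81 (0.772) and Krt86 (1.11), Krt36 for Krt83 (0.799) and Krtap3-3 for Krt87 (0.857). For Krt84 it was Tex15 (0.723), which is not a keratin. The members were put forward for their group difference, and only genes with a similarly large one can lie near, so nothing is read from these matches. For chromosome 15, which holds the block, the median log2 difference from the Control mean over 405 of its genes was -0.0028, -0.0022 and -0.066 in GATA6KO replicates 1 to 3. GATA6KO replicate 2 stood apart on chromosome 14, where its median over 355 genes was -0.90, against -0.090 and 0.043 in GATA6KO replicates 1 and 3. Hr and Sox21 of the regulators and Tgm1 of the structural genes lie on chromosome 14. They were not called, and within GATA6KO each was lowest in replicate 2.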
